A study of Mus musculus with 22 samples.

Results

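The comparison described here is the net change of Gr1-positive muscle macrophages between day 1 and day 4 after injury, taken as the 3 arrays labelled day 4 Gr1+/Cx3cr1low against the 3 arrays labelled day 1 Gr1+/Cx3cr1low, 6 of the 22 arrays of the series. The mice were of strain C57B6/J, and in every group of the series the Tibialis anterior muscle had been injured by cardiotoxin, a venom peptide that destroys the fibres, after which they regenerate. CD45+ leukocytes were drawn from the muscle with magnetic beads, stained for Gr1 and Cx3cr1 and sorted into a Ly6C+ F4/80low subset, called Gr1-positive here, and a Ly6C- F4/80high subset, the Gr1-negative cells (Gr1-/Cx3cr1high). No uninjured muscle is among the labelled groups, so day 1 is the reference. The labels call the samples biological replicates and do not say which animals, or how many, each came from, so p-values measure the spread between these samples. The Gr1-negative cells of days 1 and 4, 3 arrays each, serve below to ask whether a change differed between the subsets.

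In damaged muscle, circulating monocytes that carry Ly6C enter first, take up debris and secrete inflammatory cytokines and chemokines. Over the following days macrophages turn to dampening inflammation, clearing dead cells and supplying growth factors to muscle stem cells, and textbooks describe this as a passage from an inflammatory to a repair state. Ly6C-positive monocytes are held to be the source of the Ly6C-negative repair macrophages. The design asks how the sorted cells' expression shifted along this course.

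Levels are log2 signals of the deposited table, so that a difference of 1 is 2-fold, and levels of different probe sets cannot be compared with each other. Array medians over the series lay between 7.02 and 7.18, and the number of arrays, rather than a read depth, limits the precision. The 6 arrays had quality weights between 0.49 (day 4 replicate 3) and 1.39 (day 4 replicate 1), against 0.22 for a deviating Gr1-positive day 2 array that neither group contains. Of 19938 genes, 5105 (25.6%) differed between the days at a limma adjusted p under 0.05, with 3226 (16.2%) higher and 1879 (9.42%) lower at day 4. All counts of list members below are to be set against these shares, 16.2% higher and 9.42% lower. Over all 21789 probe sets that name 1 gene the count was 5424 (24.9%). A difference of at least 2-fold among the genes that passed was seen for 685 genes upward (3.44%) and 329 downward (1.65%). The day 4 arrays lay wholly above the day 1 arrays for 4358 genes (21.9%) and wholly below for 2797 (14%). The split by direction rests on the scaling: centring each array on its median moved the median difference of all genes from 0.00 to -0.13 and gave 2331 higher (11.7%) and 3702 lower genes (18.6%).

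**Figure D1:**
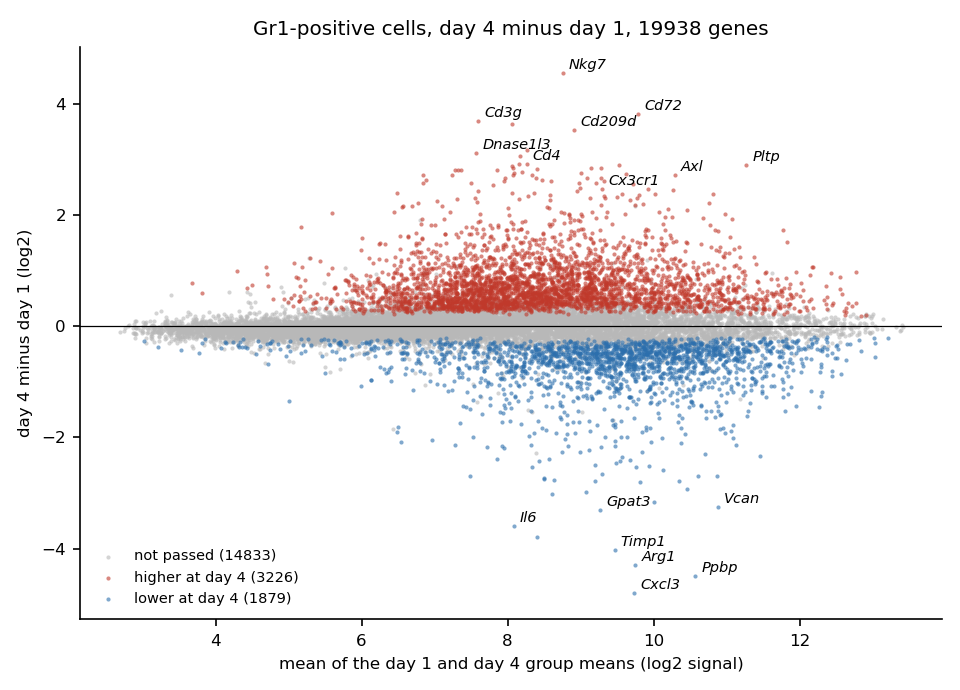
Difference between day 4 and day 1 (log2, vertical axis) against the mean level of both days (log2 signal, horizontal axis) in Gr1-positive cells, 1 point per gene. Red points are the 3226 genes higher at day 4, blue the 1879 lower and grey the rest; Cxcl3, Ppbp and Arg1 lie lowest and Nkg7 highest.

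The sort itself can be followed in the genes of its markers. Cx3cr1, the fractalkine receptor that marks reparative and tissue macrophages, measured 7.77, 8.06 and 8.35 at day 1 and 10.75, 10.08 and 10.78 at day 4, rose by 2.47 ± 0.25 (SE; adjusted p = 8.77e-07) and did not overlap between the days, within a gate defined as Cx3cr1-low. Adgre1, which encodes F4/80, rose by 0.54 ± 0.09 and Itgam, an integrin chain of myeloid cells, fell by 0.65 ± 0.07. Ly6g, whose product the Gr1 antibody also binds, fell by 0.54 ± 0.18 (adjusted p = 0.0301), and it no longer passed without day 1 replicate 1, day 1 replicate 2 or day 4 replicate 1 (0.0528, 0.206 and 0.175), or in a fit to the 6 arrays alone (0.0787). Ptprc, which encodes CD45, rose by 0.31 ± 0.10 (adjusted p = 0.0227), but not after centring (0.212), in a fit to the 6 arrays alone (0.0719) or without day 1 replicate 2 (0.141) or day 4 replicate 1 (0.102). The Ly6c genes were not analysed here. Adgre1, Itgam and Ptprc, which mark macrophages and leukocytes, were above the array medians on all 6 arrays, with day 1 means of 11.73 ± 0.08, 12.18 ± 0.11 and 11.35 ± 0.16 (SD, n = 3).

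Markers of other blood cells moved between the days too, and they bear on every gene below that such cells also express. Over all genes 16.2% were higher and 9.42% lower. Of 26 markers of T and NK cells 24 were higher at day 4 and 1 lower (median 2.12). Their summed linear signal ran from 7468 to 8819 on the day 1 arrays and from 13135 to 34749 on the day 4 arrays, with replicate 2 highest and replicate 3 lowest. Such sums weigh bright genes most, and those of day 1 owe much to Il7r, the lower member. Of 13 markers of plasmacytoid dendritic cells 12 were higher (median 1.44), with sums of 4943 to 6430 at day 1 and 16833 to 18546 at day 4. This list holds Pltp, a bright gene at day 4 that is also given below among the lipid genes. The rise of the sum therefore owes much to Pltp and is no measure of these cells alone. Of 20 neutrophil markers 10 were lower and 1 higher, with sums of 9844 to 12604 at day 1 and 4642 to 6666 at day 4. On an array no signal is 0, so absence of a cell type cannot be read from these values, and their part in the results was not tested. In bulk RNA of sorted cells, a change in the share of a cell type and a change in RNA per cell cannot be told apart. With all genes of the marker lists of other cell types removed, 5038 of 19789 genes passed. That step takes out the marker genes alone and leaves any signal of those cells in other genes, so the count cannot tell their part.

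Chemokines that attract neutrophils held the largest fall among the named genes. Cxcl3, a chemokine that draws neutrophils through the receptor Cxcr2, measured 12.42, 12.09 and 11.89 at day 1 and 7.49, 7.65 and 6.85 at day 4, a difference of -4.80 ± 0.33 or 27.9-fold (95% interval -5.50 to -4.10; adjusted p = 4.54e-08). Ppbp, a platelet and monocyte chemokine of the same family, measured 13.02, 12.79 and 12.66 at day 1 and 10.38, 7.29 and 7.28 at day 4, with day 4 replicate 1 well above both other day 4 arrays, and fell by 4.50 ± 0.62 (adjusted p = 2.20e-05). Cxcl1, at 12.13, 11.96 and 11.47 at day 1 and 9.92, 9.42 and 9.33 at day 4, fell by 2.30 ± 0.25. The 3 day 4 arrays lay below all day 1 arrays for each of these chemokines. Cxcl2 fell by 1.26 ± 0.12, and Cxcr2 itself fell by 1.75 ± 0.39, so that 6 of the 7 measured genes of this group were lower (median -1.75, against 0.00 over all genes, of which 9.42% were lower). Cxcr1, the remaining member, had a difference of -0.20 ± 0.14 that did not pass (adjusted p = 0.384). Both receptors, Cxcr1 and Cxcr2, are in the neutrophil list as well. With the genes of the marker lists of other cell types removed, 4 members of this group remained, and all 4 were lower.

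Among the secreted cytokines and their regulators, 13 of 22 were lower and 1 higher (median -0.50). Il6, which acts on muscle stem cells as well as on leukocytes, measured 10.72, 9.93 and 9.0 at day 1 and 6.25, 6.73 and 5.91 at day 4, fell by 3.59 ± 0.34 (12-fold; adjusted p = 5.75e-07), and its day 1 arrays were spread over more than the day 4 arrays. Lif, another cytokine of the IL-6 family, fell by 1.71 ± 0.20. Il10, an anti-inflammatory cytokine that repair macrophages are known to need, measured 11.04, 10.87 and 10.52 at day 1 and 9.19, 9.65 and 9.61 at day 4 and also fell, by 1.33 ± 0.22 (adjusted p = 0.000173), while its receptor chain Il10ra rose by 0.68 ± 0.11. Tnf fell by 0.66 ± 0.20 (adjusted p = 0.0164), although a day 4 array overlapped the day 1 arrays and the call was lost without day 1 replicate 1 (0.0828), day 1 replicate 2 (0.0699), day 4 replicate 1 (0.111) or day 4 replicate 3 (0.0526). Inhba, the activin A subunit that restrains muscle growth, fell by 3.17 ± 0.48.

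Genes of the interleukin 1 family and the inflammasome moved mostly downward where they passed, with 7 of 17 measured genes lower and 2 higher. Il1f9, the older name of Il36g, fell by 3.01 ± 0.38 and Il1a by 1.78 ± 0.25. Il1a measured 12.28, 12.14 and 11.53 at day 1 and 9.82, 10.40 and 10.38 at day 4, without overlap. Il1b, a main product of the inflammasome, fell by only 0.61 ± 0.15 (1.52-fold; adjusted p = 0.00494) from a mean of 12.94 ± 0.06, near the top of the scale. Its natural antagonist Il1rn fell by 1.13 ± 0.16 and the inflammasome sensor Nlrp3 by 1.52 ± 0.16. Il18bp, which binds and blocks interleukin 18, went the other way and rose by 1.54 ± 0.13 (adjusted p = 2.62e-07), as did the DNA sensor Aim2, by 0.85 ± 0.20.

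Chemokines that act on monocytes and lymphocytes split into a falling and a rising group. Of 21 measured members 8 were lower and 3 higher. Ccl2, the main ligand of Ccr2 and a recruiter of monocytes, measured 12.94, 12.80 and 12.96 at day 1 and 11.58, 11.80 and 11.79 at day 4 and fell by 1.18 ± 0.11 (adjusted p = 3.85e-07). Ccl7 fell by 1.16 ± 0.13, Ccl24 by 2.07 ± 0.42 and the receptor Ccr1 by 1.94 ± 0.26. Cxcl9, an interferon gamma target that attracts T cells, rose from 7.94 ± 0.48 to 10.61 ± 0.36 (SD, n = 3), a difference of 2.67 ± 0.36. Cxcl16 rose by 1.32 ± 0.11, with day 1 arrays between 10.26 and 10.39 and day 4 arrays between 11.49 and 11.77. Ccl5, which is in the T and NK cell list as well, rose by 1.92 ± 0.28. Ccr2, the receptor that brings Ly6C-high monocytes out of the bone marrow, had a difference of 0.30 ± 0.13 that did not pass (adjusted p = 0.124), with overlapping arrays, but passed without day 1 replicate 3 (0.0258).

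Other genes of newly arrived monocytes fell as a group, with 11 of 13 lower and a median of -1.46. Vcan, a large matrix proteoglycan and a classical monocyte marker, measured 12.80, 12.43 and 12.30 at day 1 and 9.15, 9.81 and 8.78 at day 4 and fell by 3.26 ± 0.39 (9.58-fold; adjusted p = 5.59e-06). F10, which encodes coagulation factor X, fell by 1.92 ± 0.34, the guanine deaminase Gda by 1.85 ± 0.12, haptoglobin (Hp) by 1.82 ± 0.38 and fibronectin (Fn1) by 1.46 ± 0.20. Ccr2 and Plac8, at -0.42 ± 0.32, were the members that did not pass, the latter reaching an adjusted p of 0.0435 with replicate number as a block on the 6 arrays alone. Trem1, a receptor that amplifies inflammatory signals, fell by 2.78 ± 0.28, and the C-type lectin Clec4d, a partner of the mycobacterial glycolipid receptor Clec4e, fell by 2.13 ± 0.16. In the list of C-type lectins as a whole 4 of 16 were lower and 6 higher, among the latter Cd209a, a lectin of monocyte-derived dendritic cells, at 7.89, 7.25 and 8.44 at day 1 and 10.43, 11.08 and 10.62 at day 4.

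**Figure D2:**
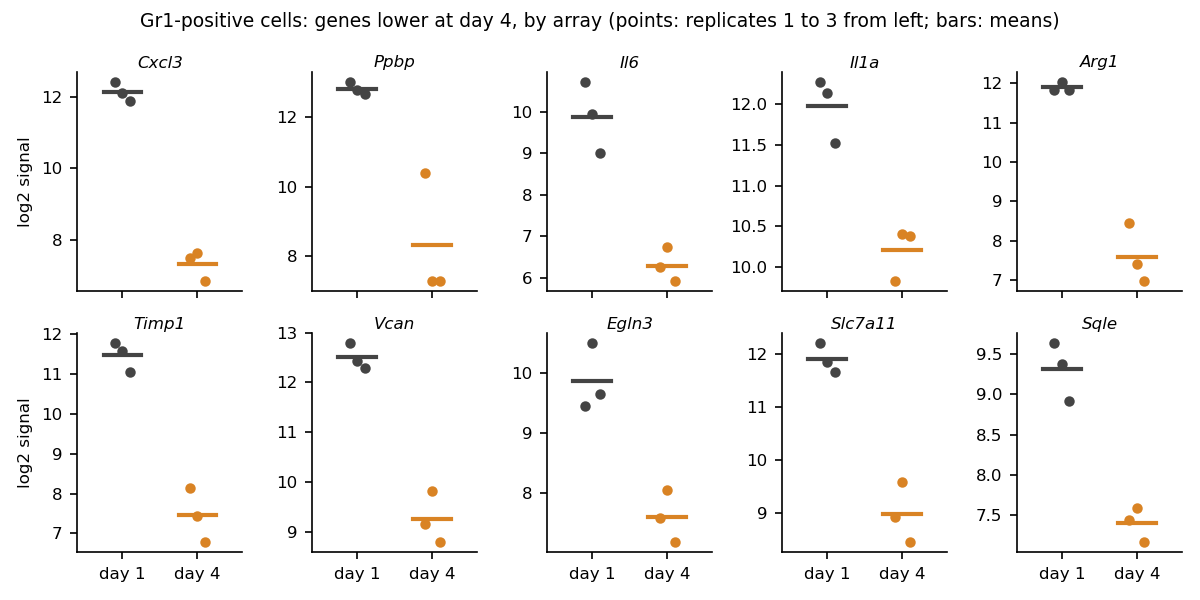
Levels (log2 signal) of 10 genes lower at day 4, 1 panel per gene, with the 3 day 1 arrays in grey and the 3 day 4 arrays in orange; bars are group means. In all 10 panels the day 4 points lie below the day 1 points, and Ppbp shows the single high day 4 array.

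Arginine metabolism, through which macrophages feed either nitric oxide or polyamine and collagen synthesis, was lower in 8 of 12 measured genes and higher in 2 (median -0.76). Arg1, arginase 1, measured 11.83, 12.04 and 11.82 at day 1 and 8.44, 7.40 and 6.97 at day 4 and fell by 4.29 ± 0.32 (19.6-fold; adjusted p = 7.82e-08). Arg2, the mitochondrial arginase, fell by 2.58 ± 0.30. Arg1 is used as a marker of alternative activation in mice, yet it was among the largest falls, and the day 4 arrays were 6.97 to 8.44. The polyamine enzyme Odc1 fell by 1.36 ± 0.23, its regulator Azin1 by 1.04 ± 0.16 and the arginine importer Slc7a1 by 1.03 ± 0.17. Nos2, the inducible nitric oxide synthase, fell by 0.63 ± 0.15 from a mean of 7.43 ± 0.44. Gatm, which uses arginine to make a creatine precursor, rose by 1.10 ± 0.22 (adjusted p = 0.000859).

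Of 17 genes of alternative activation, 3 were higher and 4 lower at day 4, and 2 were lower without day 4 replicate 3. Chil3, a chitinase-like protein, fell by 1.88 ± 0.54 (adjusted p = 0.0127), with day 4 replicate 2 at 11.04 against 9.66 on both other arrays, and it did not pass without day 4 replicate 1 (0.0600) or without replicate 3 (0.0621). Clec10a, a galactose-binding lectin, rose by 1.30 ± 0.30 (adjusted p = 0.00304). The higher share of this list is close to that over all genes (16.2%), of which 9.42% were lower. After centring 7 of its members were lower and 2 higher, and 7 were lower with replicate number as a block on the 6 arrays alone.

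Matrix and protease genes showed some of the steepest falls. Timp1, an inhibitor of metalloproteinases, measured 11.79, 11.59 and 11.06 at day 1 and 8.15, 7.43 and 6.77 at day 4 and fell by 4.03 ± 0.37 (16.3-fold; adjusted p = 4.29e-07). Timp2, its relative, measured 9.08, 9.47 and 10.37 at day 1 and 11.97, 11.72 and 11.90 at day 4 and rose by 2.22 ± 0.21. The 2 inhibitors thus moved in opposite directions, each without overlap. Serpinb2, which blocks plasminogen activators, fell by 3.80 ± 0.60, with day 1 arrays spread from 8.55 to 11.78. Mmp19 fell by 2.33 ± 0.20 and Mmp8, which is in the neutrophil list too, by 1.86 ± 0.23, and Mmp27 rose by 1.61 ± 0.30. In all, 10 of 25 measured genes of this group were lower and 4 higher, with 2 higher after centring, without day 1 replicate 1 or without day 4 replicate 3.

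Genes induced by low oxygen were lower in 15 of 22 measured members and higher in 3, with a median of -0.99. Cells sense oxygen through prolyl hydroxylases that destabilise the HIF transcription factors, which bind a short motif with the core letters ACGTG. Egln3, one of these hydroxylases and itself a HIF target, measured 9.46, 10.51 and 9.65 at day 1 and 7.58, 8.06 and 7.18 at day 4 and fell by 2.27 ± 0.28 (adjusted p = 6.71e-06). Ero1a, an oxidase of the endoplasmic reticulum, measured 11.42, 11.63 and 11.60 at day 1 and 9.99, 9.97 and 9.71 at day 4 and fell by 1.66 ± 0.16. Slc2a1, the glucose transporter GLUT1, measured 12.58, 12.75 and 12.37 at day 1 and 10.85, 11.21 and 11.04 at day 4 and fell by 1.53 ± 0.15. For all 3 genes each day 4 array was below each day 1 array. Hilpda, a lipid droplet protein, fell by 1.44 ± 0.13. Vegfa, the vascular growth factor, fell by 1.28 ± 0.15, with day 1 arrays between 12.14 and 12.21.

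RefSeq promoter windows of build GRCm38.p6, from 250 bases before to 50 bases after each gene's start, were searched for ACGTG on both strands. The motif was present in 19 of 27 windows (70.4%) of the 20 hypoxia genes that have one, against 19.6% of all 32851 windows. By gene it was present for 13 of the 14 that were lower and for 4 of the 6 that were not. A match describes the letters and is no evidence of binding. The share of a list's windows with a match was taken over its measured members whatever their change, so it says nothing about these arrays. The same holds for the motifs searched below. The stretches below are shown because they come from the 3 members with the largest falls that hold a match before the gene's start. They are written 5′ to 3′ on the gene's strand, with the motif or its reverse complement in capitals, and lie at chr12:54204054-54204124 (minus strand), chr14:45318586-45318680 (minus strand) and chr4:119108664-119108744 (plus strand). The capitals start 229, 63 and 36 bases before the respective gene's start.
Egln3: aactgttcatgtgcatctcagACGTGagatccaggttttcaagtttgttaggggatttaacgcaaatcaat
Ero1a: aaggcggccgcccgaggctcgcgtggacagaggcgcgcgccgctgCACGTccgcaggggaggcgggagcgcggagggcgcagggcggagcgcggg
Slc2a1: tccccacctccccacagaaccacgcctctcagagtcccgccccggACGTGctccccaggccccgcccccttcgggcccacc

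Glycolysis shares several of these genes and was lower in 11 of 19 measured members and higher in 1 (median -0.36). Slc16a3, which exports lactate, fell by 1.63 ± 0.18, the kinase Pgk1 by 1.08 ± 0.14 on the probe set used and by 1.08 and 1.06 on its 2 other probe sets, and Ldha by 0.41 ± 0.08 (adjusted p = 0.0011). Pfkfb4, a regulator of the pathway, was the member that rose, by 0.60 ± 0.12. Genes of oxidative phosphorylation barely took part: 3 of 33 measured subunits were higher, with a median of 0.00, and after centring 7 were lower and 2 higher. Sdha, a subunit of respiratory complex II, was among the higher, by 0.47 ± 0.12. Of 21 genes of the tricarboxylic acid cycle 8 were higher and 6 lower, with 3 lower in a fit to the 6 arrays alone. Acod1, which diverts the cycle into itaconate in activated macrophages, fell by 1.52 ± 0.32, with day 4 arrays at 10.14, 11.19 and 10.27, and Idh3a fell by 0.66 ± 0.14, whereas Fh1 rose by 0.65 ± 0.15 and Mdh1 by 0.58 ± 0.12. Mitochondrial ribosomal proteins, with 4 of 41 higher and 4 lower, had a median of 0.11, close to that of all genes (0.00). The higher count was 2 without day 1 replicate 1, without day 4 replicate 2 or after centring, 7 with replicate number as a block, 10 with array weights and 12 without both day 2 arrays numbered 1.

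Antioxidant genes under the factor Nrf2 were lower in 9 of 24 measured members and higher in 3. Slc7a11, the cystine importer that supplies glutathione synthesis, measured 12.22, 11.86 and 11.67 at day 1 and 8.93, 9.59 and 8.45 at day 4 and fell by 2.93 ± 0.35 (7.6-fold; adjusted p = 6.14e-06). Srxn1 fell by 1.45 ± 0.19, Txnrd1 by 1.40 ± 0.14 and the metallothionein Mt2 by 1.38 ± 0.29. Catalase (Cat) rose by 1.03 ± 0.15. The number of higher members was 1 after centring, without day 4 replicate 1 and without day 4 replicate 3, and 15 were lower after centring. Genes of the unfolded protein response were lower in 9 of 24 measured members, with Hyou1, a chaperone of the endoplasmic reticulum, at -1.13 ± 0.12 and Pdia4 at -0.76 ± 0.11. That count was 14 after centring and 5 without day 1 replicate 1, without day 1 replicate 2 or without day 4 replicate 1.

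In the list of cholesterol and fatty acid synthesis 11 of 24 measured members were lower and 6 higher. Sqle, squalene epoxidase, measured 9.64, 9.37 and 8.92 at day 1 and 7.44, 7.59 and 7.16 at day 4 and fell by 1.92 ± 0.15 (adjusted p = 9.14e-08). Idi1 fell by 1.93 ± 0.22, Cyp51 by 1.73 ± 0.18, Msmo1 by 1.40 ± 0.17 and Fdps by 1.16 ± 0.19, and all 5 of these make sterol precursors. Fads1, a desaturase of polyunsaturated fatty acids, measured 8.26, 8.53 and 8.85 at day 1 and 10.44, 9.83 and 10.01 at day 4 and rose by 1.55 ± 0.18, and the stearoyl desaturase Scd2 rose by 1.49 ± 0.17. Without day 1 replicate 1, which held the highest day 1 values of these sterol genes, 7 members were lower and 6 higher. The sterol element TCACNCCAC, the motif of the SREBP factors, was found in 1 of 22 windows (4.5%) of this list, against 1.24% of all.

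Of 24 genes of lipid handling and of nuclear receptor targets 14 were higher and 5 lower, with a median of 0.64. Pltp, the phospholipid transfer protein and a target of the LXR sterol receptors, measured 9.28, 10.04 and 10.14 at day 1 and 12.77, 12.56 and 12.81 at day 4 and rose by 2.89 ± 0.29 (7.41-fold; adjusted p = 8.77e-07). Pltp is in the list of plasmacytoid dendritic cell markers as well. Abcg1, which exports cholesterol, measured 9.27, 9.88 and 9.74 at day 1 and 11.99, 11.91 and 12.13 at day 4 and rose by 2.38 ± 0.14 (adjusted p = 1e-08). For both genes the day 4 arrays were close together and all above day 1. Mylip, an LXR target that removes the LDL receptor, rose by 1.61 ± 0.15. Lpl, lipoprotein lipase, rose by 1.47 ± 0.22, the lipid-sensing receptor Trem2 by 1.61 ± 0.32 and the receptor Pparg by 0.90 ± 0.15. Abca1, another LXR target, had a difference of 0.33 ± 0.23 that did not pass (adjusted p = 0.37, or 0.0469 with replicate number as a block on the 6 arrays alone).

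Vdr, the vitamin D receptor, measured 11.13, 10.92 and 10.12 at day 1 and 8.33, 8.25 and 8.17 at day 4 and fell by 2.47 ± 0.28 (adjusted p = 2.93e-06). Olr1, a receptor for oxidised LDL, fell by 2.11 ± 0.29 and Msr1 by 0.79 ± 0.11. Gpat3, which starts triglyceride synthesis and lies outside these lists, measured 11.12, 11.03 and 10.61 at day 1 and 7.62, 7.71 and 7.51 at day 4 and fell by 3.31 ± 0.11 (adjusted p = 1.10e-12), with an error far smaller than the change. Enzymes of fatty acid beta-oxidation were higher in 8 of 20 measured members and lower in 1, with Hadh at 1.44 ± 0.18, Decr1 at 1.23 ± 0.22 and Echs1 at 0.90 ± 0.17. Abcd2, a peroxisomal transporter of very long fatty acids, measured 6.48, 6.72 and 6.67 at day 1 and 9.58, 9.40 and 9.51 at day 4 and rose by 2.87 ± 0.23.

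Genes by which macrophages take up dying cells were higher in 11 of 26 measured members and lower in 2, or in 4 after centring. Axl, a receptor tyrosine kinase that recognises phosphatidylserine through a bridge protein, measured 8.32, 9.38 and 9.09 at day 1 and 11.49, 11.64 and 11.81 at day 4 and rose by 2.72 ± 0.32 (6.57-fold; adjusted p = 4.26e-06). Its bridge Gas6 measured 7.57, 7.72 and 8.47 at day 1 and 10.76, 9.94 and 10.80 at day 4 and rose by 2.58 ± 0.33. Mertk, the sister receptor, rose by 1.50 ± 0.21, and Mfge8, a bridge to integrins, by 1.73 ± 0.27. Receptor and ligand thus rose on the same arrays, and their day 1 and day 4 values did not overlap. C1qa, C1qb and C1qc, the chains of the complement recognition protein C1q, rose by 2.02 ± 0.23, 0.96 ± 0.14 and 1.73 ± 0.21. Tgm2, a transglutaminase used in engulfment, fell by 1.09 ± 0.11. In the complement list 7 of 18 were higher and 3 lower, with factor B (Cfb) up by 1.59 ± 0.32 while the anaphylatoxin receptor C5ar1 fell by 0.70 ± 0.13.

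Genes typical of resident macrophages were higher in 12 of 22 measured members and lower in 2, with a median of 0.89. Dnase1l3, a secreted nuclease that digests DNA of dead cells, measured 5.92, 6.14 and 5.98 at day 1 and 9.97, 8.92 and 8.48 at day 4 and rose by 3.11 ± 0.26 (8.61-fold; adjusted p = 1.69e-07). Cd5l, a scavenger protein of tissue macrophages, measured 5.42, 5.58 and 5.66 at day 1 and 8.01, 7.72 and 8.66 at day 4 and rose by 2.58 ± 0.31. Both were below the array medians on every day 1 array and above them on every day 4 array. Folr2, a folate receptor of tissue macrophages, rose by 1.35 ± 0.26 and Hpgd, which inactivates prostaglandins, by 2.01 ± 0.24. Cd72, an inhibitory receptor and the second largest rise of all named genes, measured 7.25, 8.56 and 7.83 at day 1 and 11.51, 11.58 and 11.99 at day 4 and rose by 3.81 ± 0.34.

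**Figure D3:**
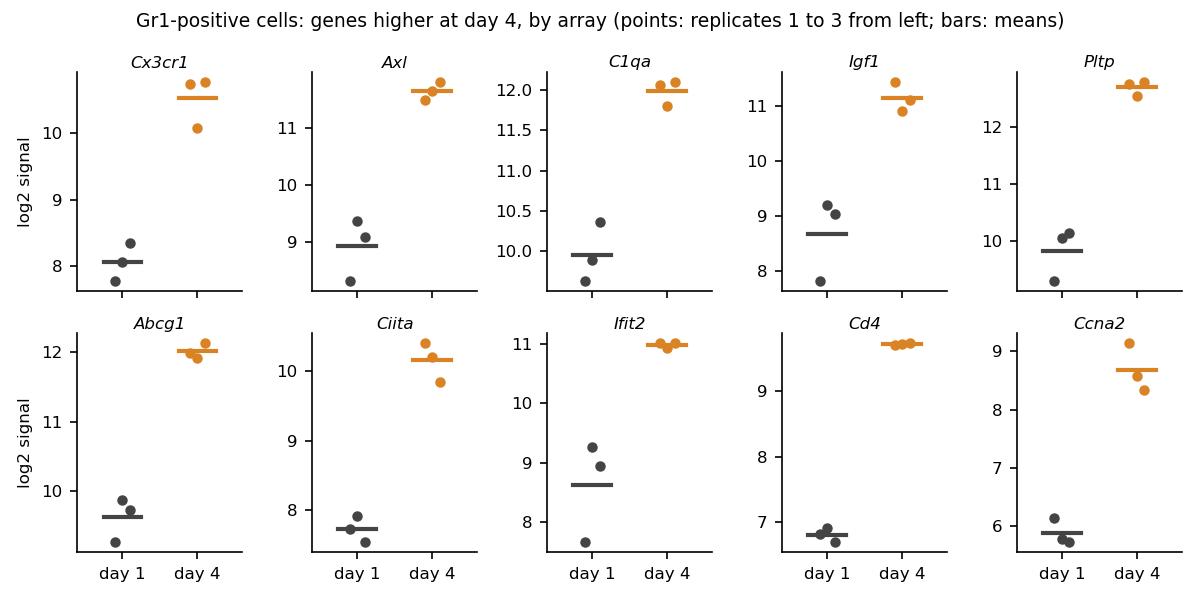
Levels (log2 signal) of 10 genes higher at day 4, 1 panel per gene, drawn as for the falling genes. In all 10 panels the day 4 points lie above the day 1 points, with the widest day 1 spread for Igf1 and Ifit2.

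Of 17 transcription factors and receptors that specify macrophages 7 were higher and 1 lower, against 6 and 3 after centring. Bhlhe41, a factor of self-renewing macrophages, measured 6.18, 7.39 and 7.74 at day 1 and 9.51, 9.42 and 9.40 at day 4 and rose by 2.34 ± 0.38. Irf8, which sets the monocyte and dendritic cell fate, rose by 1.63 ± 0.16, Klf2 by 1.23 ± 0.14, Cebpa by 1.14 ± 0.14 and Maf by 0.69 ± 0.17. Cebpb, a factor of the inflammatory and repair response, fell by 0.79 ± 0.15 (adjusted p = 0.000407). Spi1, which encodes the master regulator PU.1, had a difference of 0.14 ± 0.10 that did not pass.

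Growth factors of repair were higher in 9 of 18 measured members and lower in 2 (median 0.47). Igf1, through which macrophages promote muscle fibre growth, measured 7.81, 9.20 and 9.03 at day 1 and 11.45, 10.91 and 11.11 at day 4 and rose by 2.47 ± 0.29 (5.56-fold; adjusted p = 5.35e-06). Day 1 replicate 1 was lowest, and the days did not overlap. Pdgfb rose by 1.31 ± 0.18 and Vegfb by 1.05 ± 0.12, the latter opposite to Vegfa. Gdf3, a member of the TGF-beta family made by repair macrophages, rose by 1.04 ± 0.34 (adjusted p = 0.0291) but did not pass after centring, without day 1 replicate 1 or 3 or without day 4 replicate 1 or 2 (adjusted p from 0.0573 to 0.121).

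Lysosomal enzymes were higher in 15 of 27 measured members and lower in 2. Sgsh and Naglu, which break down heparan sulphate, rose by 1.89 ± 0.21 and 1.36 ± 0.18, Arsb by 1.29 ± 0.28 and the galactosidase Glb1 by 1.01 ± 0.19. Atp6v0d2, a proton pump subunit of macrophages and osteoclasts, measured 8.43, 9.16 and 8.71 at day 1 and 11.38, 10.57 and 10.92 at day 4 and rose by 2.19 ± 0.37, while another pump subunit, Atp6v1h, fell by 0.65 ± 0.11. Of 16 cathepsins and their inhibitors 5 were higher (9 after renewed quantile normalization, 3 after centring), among them Ctsh by 0.84 ± 0.14 and Ctso by 1.00 ± 0.17. Ctsw, with 6.55, 6.88 and 6.52 at day 1 and 9.11, 10.26 and 8.36 at day 4, had the largest rise of that list, 2.60 ± 0.32, and is a cathepsin of cytotoxic lymphocytes. Iron genes were split, with 6 of 19 higher and 3 lower, against 16.2% and 9.42% over all genes. Lcn2, which captures bacterial iron carriers, fell by 2.66 ± 0.44 and is in the neutrophil list too, and ceruloplasmin (Cp) rose by 1.35 ± 0.29. Without day 1 replicate 2 or without day 4 replicate 1, 3 iron genes were higher and 4 lower.

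Of 18 measured prostaglandin and leukotriene genes 6 were higher and 4 lower, against 16.2% and 9.42% over all genes. Ptges, the inducible prostaglandin E2 synthase, measured 9.07, 8.93 and 8.14 at day 1 and 7.31, 7.21 and 7.16 at day 4 and fell by 1.48 ± 0.24 (adjusted p = 9.96e-05), and Ptgs2, the inducible cyclooxygenase, fell by 0.87 ± 0.13. Hpgds, the haematopoietic prostaglandin D2 synthase, measured 7.39, 7.58 and 9.06 at day 1 and 10.75, 10.15 and 10.96 at day 4 and rose by 2.61 ± 0.40. The receptor Ptger4 rose by 1.50 ± 0.18.

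Antigen presentation by MHC class II was higher in 11 of 13 measured genes (median 0.57), in 7 without day 1 replicate 3 and in 6 after centring. Ciita, the transactivator that switches on the class II genes, measured 7.73, 7.92 and 7.54 at day 1 and 10.41, 10.21 and 9.85 at day 4 and rose by 2.43 ± 0.17 (5.38-fold; adjusted p = 4.57e-08). H2-Oa rose by 1.16 ± 0.25 and H2-DMa by 0.76 ± 0.15, and both encode chains that bear on the loading of peptides on class II. Marchf1, which returns class II from the surface, rose by 1.04 ± 0.12. Cd74, the invariant chain, started at 12.63 ± 0.24 and had a difference of 0.21 ± 0.12 that did not pass (adjusted p = 0.225). Costimulatory ligands were divided, with 8 of 18 lower and 5 higher. Cd80 measured 12.04, 11.68 and 11.45 at day 1 and 10.28, 10.23 and 9.90 at day 4 and fell by 1.58 ± 0.16, Cd86 fell by 0.94 ± 0.12 and Pvr by 1.43 ± 0.14, whereas Cd40 rose by 1.17 ± 0.16 and Icosl by 1.40 ± 0.20. The lower members numbered 4 without day 1 replicate 1 or 2 and 5 without day 4 replicate 3, with 4 higher each time.

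Of 18 Toll-like receptor and signalling genes 7 were higher and 5 lower, against 16.2% and 9.42% over all genes. Cd14 fell by 0.80 ± 0.11 and Tlr2 by 0.68 ± 0.09, both at the cell surface. Tlr3, which senses double-stranded RNA in endosomes, measured 6.05, 6.63 and 6.93 at day 1 and 8.45, 8.31 and 8.20 at day 4 and rose by 1.79 ± 0.25, and Tlr9, a DNA sensor, rose by 0.95 ± 0.14. The cytosolic sensors Nod1 and Nod2 moved apart, by 0.82 ± 0.13 and -0.84 ± 0.16.

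Receptors for extracellular nucleotides, which leak from dying cells, were higher in 9 of 13 measured members and lower in 2 (median 0.65). P2ry14, a receptor for UDP-glucose, measured 6.70, 6.94 and 6.79 at day 1 and 9.95, 9.56 and 9.25 at day 4 and rose by 2.77 ± 0.25 (adjusted p = 3.19e-07). P2ry13 rose by 2.55 ± 0.33, P2ry12, best known from microglia, by 1.98 ± 0.39, and P2rx7, which couples ATP to the inflammasome, by 1.36 ± 0.12. Nt5e, which encodes CD73 and turns AMP into adenosine, went the other way: it measured 10.90, 10.33 and 10.44 at day 1 and 7.87, 7.68 and 7.19 at day 4 and fell by 2.98 ± 0.25 (7.87-fold).

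Interferon-stimulated genes were higher in 8 of 25 measured members, with a median of 0.48. Ifit2, which blocks viral translation, measured 7.66, 9.27 and 8.94 at day 1 and 11.02, 10.93 and 11.01 at day 4 and rose by 2.36 ± 0.51 (adjusted p = 0.00175). Ifit3b, at 4.85, 5.98 and 5.64 at day 1 and 8.22, 8.60 and 7.77 at day 4, rose by 2.71 ± 0.49, and Gbp3, a guanylate-binding protein, at 8.29, 8.92 and 8.45 at day 1 and 9.99, 9.96 and 9.57 at day 4, by 1.29 ± 0.28. Day 1 replicate 1 was the lowest array for all 3 genes. Without it 4 members were higher, and Ifit3, which rose by 1.71 ± 0.46 (adjusted p = 0.00926), did not pass (0.0708). Without both day 2 arrays numbered 1, which enter the estimate of spread, 14 were higher, and with replicate number as a block on the 6 arrays alone 16. Of the 24 promoter windows of this list 11 (45.8%) hold the interferon element, GAAA followed by any 2 bases and a second GAAA, on either strand, against 3.44% of all windows. By gene, 5 of the 6 higher genes with a window hold it and 6 of the 13 others. The stretches of Ifit3b (chr19:34607758-34607857, plus strand, build GRCm38.p6) and Gbp3 (chr3:142559960-142560043, plus strand) follow because these are among the largest rises with a match before the gene's start. Capitals mark the matches, here in the reverse orientation, and in Gbp3 2 matches overlap. Ifit3 has the same letters as Ifit3b at chr19:34583362-34583461, and array signal of the Ifit genes can be shared between near-identical copies.
Ifit3b: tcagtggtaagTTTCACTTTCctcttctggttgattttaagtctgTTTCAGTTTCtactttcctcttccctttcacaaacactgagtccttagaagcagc
Gbp3: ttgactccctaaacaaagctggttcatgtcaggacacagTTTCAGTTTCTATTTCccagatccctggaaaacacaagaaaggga

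Immediate early and stress genes, which cell isolation can induce, were higher in 9 of 21 members and lower in 3, with 5 higher after centring, without day 1 replicate 1 or without day 4 replicate 2. The heat shock gene Hspa1a measured 11.13, 11.28 and 10.79 at day 1 and 12.48, 12.67 and 12.61 at day 4 and rose by 1.52 ± 0.21, and Atf3 rose by 0.92 ± 0.16. Ier3 fell by 1.24 ± 0.16 and Nr4a2 by 0.99 ± 0.11. The share of these changes that arose during isolation was not tested.

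Genes of cell division were higher in most measured members. Of 31 genes of DNA replication and the G1/S transition 25 were higher and 1 lower (median 0.48), against 16.2% higher among all genes. Mcm6 and Mcm7, subunits of the replicative helicase, rose by 1.45 ± 0.24 and 1.42 ± 0.13. Mcm7 measured 7.23, 7.30 and 7.17 at day 1 and 8.68, 8.73 and 8.54 at day 4. Of 29 genes of mitosis and the spindle 23 were higher (median 1.02). Ccna2, which encodes cyclin A2, measured 6.14, 5.78 and 5.72 at day 1 and 9.15, 8.58 and 8.34 at day 4 and rose by 2.81 ± 0.30 (7.02-fold; adjusted p = 1.84e-06). Ccnb2, cyclin B2, measured 7.22, 7.45 and 7.15 at day 1 and 9.33, 8.65 and 9.04 at day 4 and rose by 1.73 ± 0.27, and the spindle motor Kif11 measured 5.72, 6.07 and 5.92 at day 1 and 7.92, 7.57 and 7.26 at day 4 and rose by 1.68 ± 0.27. Every day 4 array lay above every day 1 array for these cyclins and for Kif11. The checkpoint gene Mad2l1 rose by 1.51 ± 0.21. Probe sets of Top2a disagreed, with 1.66 ± 0.24 for the one used and -1.15 for the other, which did not pass (adjusted p = 0.0703).

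Promoters of cell cycle genes often carry TTTGAA, the core of the cell cycle homology region through which they are silenced in resting cells. The letters were found, on either strand, in 21 of 27 windows (77.8%) of the mitosis list and in 17.9% of all. Of the 19 higher genes with a window 13 hold the motif, as do all 6 of the others. Ccnb2 (chr9:70421671-70421766, minus strand) and Kif11 (chr19:37376318-37376381, plus strand, motif as its reverse complement) are shown in build GRCm38.p6. They had the largest rises among the members of that group with a match before the gene's start.
Ccnb2: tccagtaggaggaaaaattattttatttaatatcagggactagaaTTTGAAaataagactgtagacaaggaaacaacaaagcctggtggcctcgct
Kif11: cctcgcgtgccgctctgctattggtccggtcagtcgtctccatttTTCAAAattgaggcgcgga

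Nkg7, Cd3g, Gzmb, Cd8b1, Cd4 and Ifng, all in the T and NK cell list, were among the 15 largest rises. Nkg7, a granule membrane protein of cytotoxic cells, measured 6.24, 6.64 and 6.55 at day 1 and 11.16, 11.95 and 9.96 at day 4 and rose by 4.55 ± 0.41 (23.4-fold; adjusted p = 3.82e-07). Cd3g, a chain of the T cell receptor complex, measured 5.74, 5.79 and 5.70 at day 1 and 9.44, 10.73 and 8.16 at day 4 and rose by 3.69 ± 0.46. Gzmb, the cytotoxic protease granzyme B, measured 6.35, 6.41 and 5.96 at day 1 and 9.71, 11.25 and 8.64 at day 4 and rose by 3.63 ± 0.48. On the day 4 arrays these 3 genes kept the same order, replicate 2 above replicate 1 above replicate 3, as did Ifng, which rose by 2.85 ± 0.35. Cd4 did not follow that order: it measured 6.82, 6.91 and 6.69 at day 1 and 9.71, 9.72 and 9.74 at day 4, with a spread of 0.02 (SD, n = 3) at day 4, and rose by 2.92 ± 0.13 (adjusted p = 7.26e-11). Cd28, a costimulatory receptor of T cells, measured 6.58, 6.69 and 6.64 at day 1 and 9.90, 9.60 and 9.60 at day 4 and rose by 3.06 ± 0.19. Il7r, which is in the T cell list, fell by 0.74 ± 0.13 from a mean of 12.11 ± 0.11.

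Among dendritic cell genes, Siglech, a receptor of plasmacytoid dendritic cells, measured 7.27, 7.03 and 6.65 at day 1 and 10.38, 9.38 and 9.32 at day 4 and rose by 2.71 ± 0.22 (adjusted p = 1.40e-07). Ccr9, a gut-homing receptor that these cells also carry, rose by 2.40 ± 0.30 and the factor Spib by 1.66 ± 0.28. Conventional dendritic cell markers were higher in 7 of 14 measured members (median 0.78), with the growth factor receptor Flt3 up by 1.70 ± 0.27, Clec9a, a receptor for dead cells, by 2.21 ± 0.22 and Kmo by 2.83 ± 0.30. Neutrophil genes fell: S100a8 and S100a9, the calgranulins, fell by 2.39 ± 0.32 and 1.86 ± 0.25, with replicate 2 highest at day 4 for both. Of 11 B cell markers 3 were higher, among them Cd79b by 2.14 ± 0.18 and Cd22 by 1.85 ± 0.18. Fibroblast (2 of 14 higher), muscle (6 of 19), endothelial (1 of 11), mast cell and eosinophil (1 of 16 lower) and red cell and platelet markers (2 of 6 lower) completed the check, and Ppbp is one of the platelet markers. Over all genes 16.2% were higher and 9.42% lower. The fibroblast and endothelial counts of higher members, and the mast cell and eosinophil count of lower members, were below these shares. The muscle count was 3 after renewed quantile normalization or without day 4 replicate 3, and 4 members were higher and 3 lower after centring. The fibroblast count was 4 in a fit to the 6 arrays alone, 8 with replicate number as a block on those arrays, and 1 without any 1 of the day 1 arrays or without day 4 replicate 1. The summed linear signal of the fibroblast markers ran from 1957 to 2239 at day 1 and from 3018 to 5586 at day 4, and its part in the results was not tested. The Fc gamma receptor list (1 of 6 higher) and Ms4a proteins (2 of 9 higher and 1 lower, Ms4a7 up by 1.12 ± 0.16) changed little as groups. In the former the member that passed was Fcrls, an Fc receptor-like gene and not an Fc gamma receptor, which rose by 2.06 ± 0.36. The other 5 members did not pass in the main fit.

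**Figure D4:**
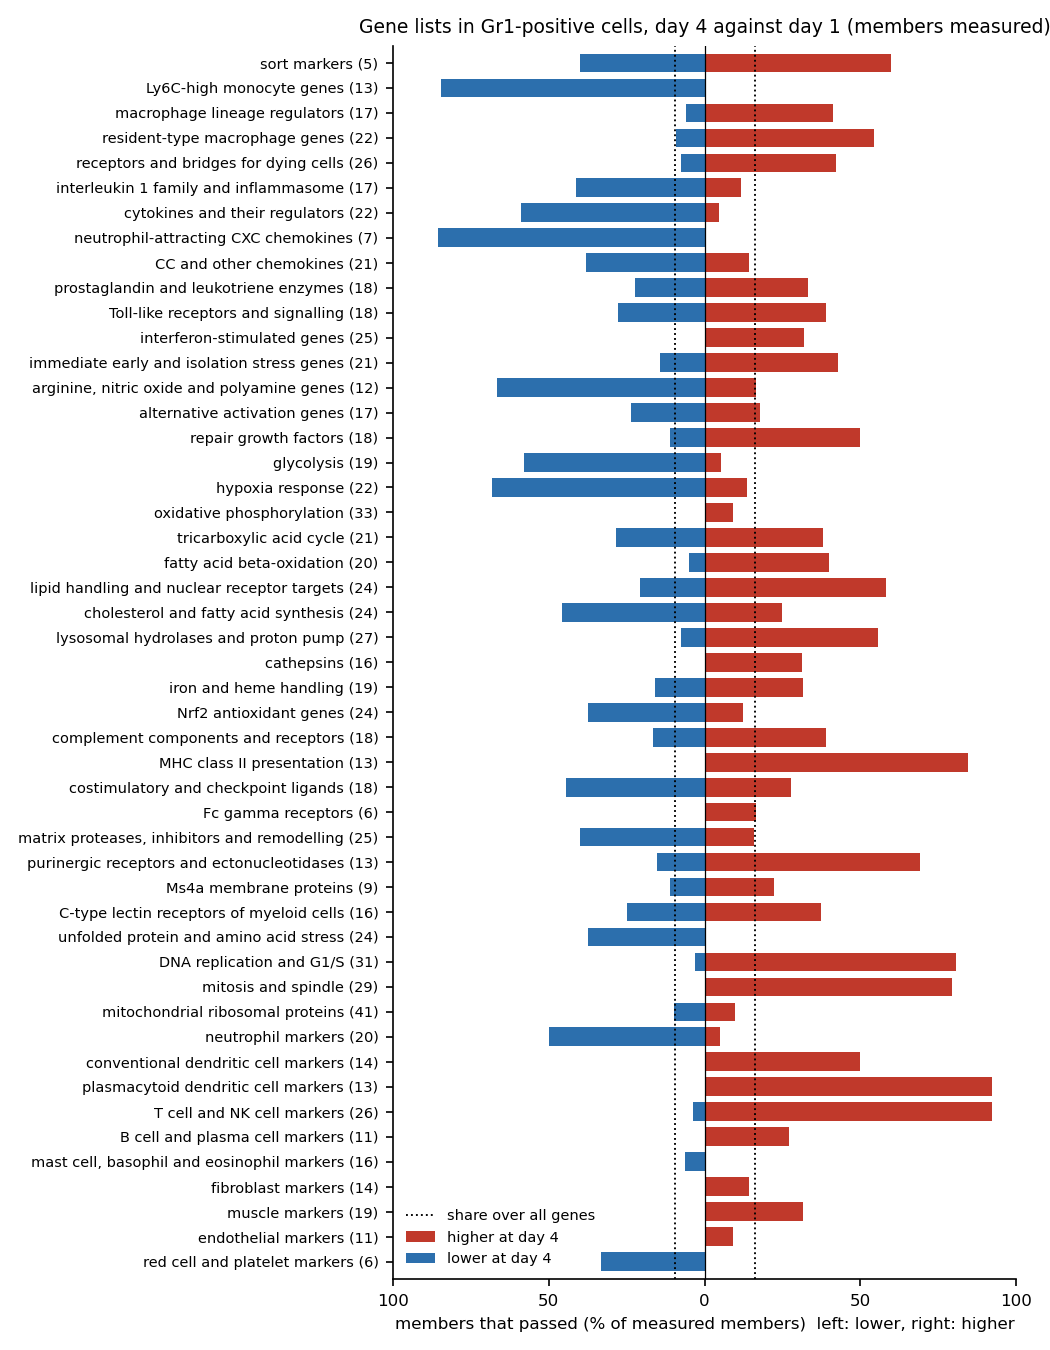
Share of measured members of each list (number in brackets) that were higher (red, right) or lower (blue, left) at day 4, in % of measured members, with the share over all genes dotted at 16.2% and 9.42%. T and NK cell, plasmacytoid dendritic cell and MHC class II lists extend furthest right, and the CXC chemokine and monocyte lists furthest left.

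The same interval was measured in the Gr1-negative cells, where 4815 genes passed (24.1%; 3087 or 15.5% higher and 1728 or 8.67% lower). The difference between the changes was tested directly. Of 19938 genes 1162 had an unadjusted p under 0.05, where a share of 0.05 would have one with no difference at all. After adjustment 19 genes passed (0.0953%). The count was 56 with array weights, 11 after centring and 7 in a fit to the 12 arrays of both days. With day and number together as a replicate block it was 91 as a random term. It was 175 as a fixed term, a setting chosen after seeing the data. Same-numbered arrays of the subsets correlated at 0.098 to 0.381 at day 1 and 0.501 to 0.637 at day 4. The main fit, with 19 genes, holds no such block. Among Gr1-positive arrays the count was 48 without day 4 replicate 3, 37 without day 1 replicate 3, 10 without day 4 replicate 2 and 8 without day 1 replicate 1 or 2. Among Gr1-negative arrays it was between 9 and 12 without day 1 replicate 2 or 3 or any day 4 array. Siglech rose in Gr1-positive cells but its difference in Gr1-negative cells was 0.19 ± 0.22 (adjusted p = 0.565), and the changes differed by 2.52 ± 0.31 (adjusted p = 0.00167). Atp1b1, a sodium pump subunit, rose by 2.91 ± 0.24 in Gr1-positive cells, against 0.33 ± 0.24 in the other subset, a difference of 2.58 ± 0.33 (adjusted p = 0.002). For Ccr9 the changes differed by 3.07 ± 0.43 (adjusted p = 0.00365). Xcr1, a chemokine receptor of cross-presenting dendritic cells, went the opposite way: it rose by 2.51 ± 0.17 in Gr1-negative cells, had a difference of 0.30 ± 0.17 in Gr1-positive cells, and the changes differed by -2.21 ± 0.24 (adjusted p = 0.000591). Cd209d, a lectin receptor, measured 7.60, 7.50 and 6.36 at day 1 and 11.10, 10.98 and 9.97 at day 4 in Gr1-positive cells and its change differed by 3.64 ± 0.66 (adjusted p = 0.0342), a call kept in 3 of 12 fits that each left out 1 array. The calls for Siglech, Atp1b1, Ccr9 and Xcr1 were kept in all 12. For the inflammatory genes the changes were -4.80 and -4.84 ± 0.33 for Cxcl3 and -4.29 and -4.83 ± 0.32 for Arg1, and the test of their difference did not pass (adjusted p = 0.995 and 0.978).

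**Figure D5:**
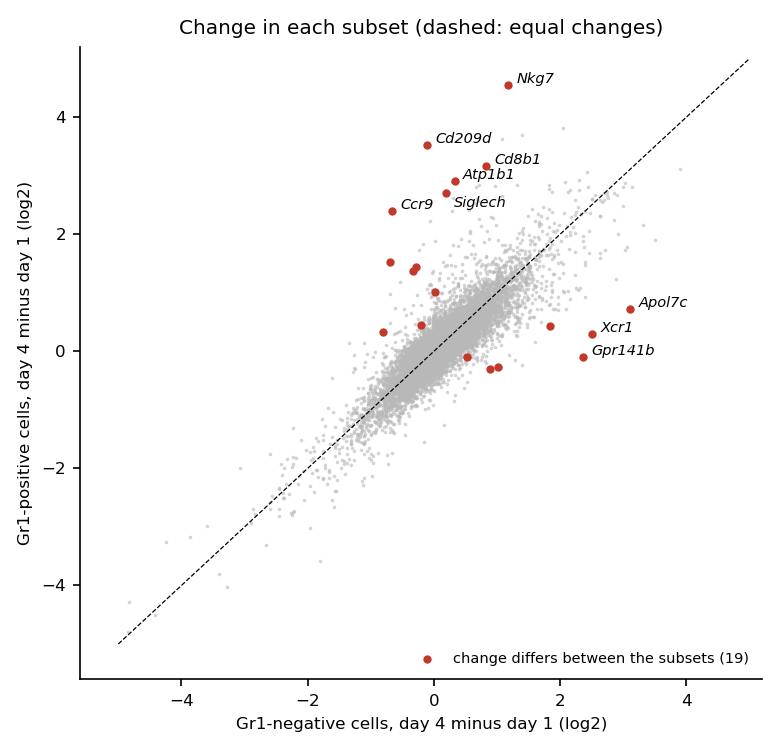
Change from day 1 to day 4 in Gr1-positive cells (log2, vertical axis) against the change in Gr1-negative cells (log2, horizontal axis), 1 point per gene, with the 19 genes whose changes differ in red and equal changes on the dashed line. Siglech, Ccr9, Atp1b1, Cd209d, Nkg7 and Cd8b1 lie above the line and Xcr1, Apol7c and Gpr141b below it.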

How the data were processed

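The authors deposited 1 table of log2 values per probe set and array, summarised with RMA per the submitters' processing notes, which give no version. RNA was labelled with Affymetrix reagents per the labels' protocols, and the settings of RMA are not given in the sources used here. Array medians ran from 7.02 to 7.18, so the arrays were not on an identical scale, and centring them was tried as an alternative. Of 35556 probe sets, 12146 had no gene in the platform table, 1621 named several and were left out, and 21789 named 1 gene, of which 21698 were matched to current names by Entrez number (GRCm38.p6 RefSeq). For the 999 genes with several probe sets the one with the highest mean over arrays was kept, which left 19938 genes. All 22 columns were matched to labels.

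Gene tests used limma 3.58.1 (R 4.3.3, statmod 1.5.0) with 1 mean per group over all 22 arrays of 8 groups, moderated variances (no trend) and p-values adjusted over the 19938 genes by Benjamini and Hochberg, with 0.05 as the limit for a gene to pass. All groups enter so that they share 1 estimate of spread. The fit was tested on simulated data. SE is that of the fit, SD that of the 3 arrays, and summed signals are sums of 2 to the power of the log2 value. Figures were drawn with matplotlib 3.10.9.

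The labels number the replicates 1 to 3 without saying what the numbers share. Deviations of same-numbered day 1 and day 4 Gr1-positive arrays from their group means correlated at 0.288, 0.225 and 0.318, and each array matched its own number best. The main fit holds no block on the number, so its SEs and p-values leave out any such pairing. A block on the number was run as an alternative. Same-numbered arrays of the subsets also matched their own number best, at 0.098 to 0.381 at day 1 and 0.501 to 0.637 at day 4. For the difference between the subsets a block on day and number was run as an alternative too. Other alternatives were scaling, a filter on dim genes, probe set choice, array weights and leaving out arrays.

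The 49 gene lists hold 928 entries, of which 858 were measured and the rest were not analysed here. The naming rule took the 15 largest differences per direction among genes that passed with no overlap between the days' arrays, each list's anchor genes, up to 5 members per list and direction that passed and its largest difference that did not, and the 6 largest per direction whose change differed between the subsets. Clone-named and predicted genes, small RNAs, receptor segments and olfactory genes were left out of the first and last parts, and the text names a part of these genes. The members and lists were chosen with earlier results of these data known. Probe sets of near-identical genes (Ifit, Cd209, H2, Ly6) can share signal.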

Additional observations from a re-analysis of the deposited data

Results flagged for a closer look

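Genes named here are those whose change from day 1 to day 4 differed between the sorted subsets by the test of the difference itself (limma, adjusted p over all genes tested), limited to the 6 with the largest differences per direction, and values are the change in Gr1-positive cells minus the change in Gr1-negative cells (log2 ± SE). No explanation was tested for any of them.

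The first 6 genes changed more upward in the Gr1-positive cells. Cd209d differed by 3.64 ± 0.66 (adjusted p = 0.0342), with 3.53 ± 0.46 in Gr1-positive and -0.11 ± 0.46 in Gr1-negative cells. Nkg7, which rose in both subsets, differed by 3.37 ± 0.59 (adjusted p = 0.0276). Ccr9 differed by 3.07 ± 0.43 (adjusted p = 0.00365), with -0.67 ± 0.30 in Gr1-negative cells. Atp1b1 differed by 2.58 ± 0.33 (adjusted p = 0.002) and Siglech by 2.52 ± 0.31 (adjusted p = 0.00167). Cd8b1, a T cell coreceptor chain, differed by 2.33 ± 0.42 (adjusted p = 0.0342).

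The other genes changed more upward in the Gr1-negative cells. Gpr141b, an orphan receptor gene, differed by -2.45 ± 0.38 (adjusted p = 0.0112), with -0.09 ± 0.27 in Gr1-positive and 2.37 ± 0.27 in Gr1-negative cells. Apol7c, an apolipoprotein L gene of dendritic cells, differed by -2.38 ± 0.44 (adjusted p = 0.0381), and Xcr1 by -2.21 ± 0.24 (adjusted p = 0.000591). H2-M2, a non-classical class I gene, differed by -1.40 ± 0.24 (adjusted p = 0.0276), Cdkn3 by -1.26 ± 0.23 (adjusted p = 0.0372) and Cyp39a1 by -1.20 ± 0.22 (adjusted p = 0.0351).

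Leaving out each of the 12 arrays of days 1 and 4 in turn kept the call every time for Atp1b1, Ccr9, Siglech and Xcr1, whose adjusted p stayed at 0.0204 or lower. Gpr141b kept it in 11 fits and lost it without day 1 Gr1-positive replicate 2 (0.0530). H2-M2 kept it in 6 fits, Nkg7 in 4, Apol7c, Cd209d, Cd8b1 and Cyp39a1 in 3 each and Cdkn3 in 2, with adjusted p-values of up to 0.147. Each of the 12 arrays ended the call of at least 1 of these genes.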

How the results depend on the processing

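The count of genes that differed between the days (5105) was within 1.5 times under every alternative, from 4740 to 6033, and from 3917 to 4738 when 1 of the 6 Gr1-positive arrays was left out. The count at 2-fold or more ran from 918 to 1091, and from 874 to 1129 with 1 array left out. Higher genes numbered 2331 to 3573 (2568 to 2951 with 1 array left out). Lower genes numbered 1590 to 2470, except 3702 after centring, and 1349 to 1889 with 1 array left out. With the replicate number as a block 5404 genes differed, or 5511 on the 6 arrays alone, a setting chosen after seeing the data. On all 22 arrays the replicate block changed no call of a named gene. On the 6 arrays alone, Plac8, Abca1 and Apol7c passed with the block (adjusted p = 0.0435, 0.0469 and 0.00701) and not without it (0.102, 0.368 and 0.0517), as did Ly6g and Ptprc (0.0358 and 0.0464 with it, 0.0787 and 0.0719 without), whereas H2-M2 passed both with it (0.00984) and without it (0.00682).

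The count of genes whose change differed between the subsets (19) was the least steady: 11 after centring, 56 with array weights, 7 in a fit to the 12 arrays of days 1 and 4, and 8 to 48 with 1 array left out. With day and number together as a replicate block it was 91 as a random term (correlation 0.278) and 175 as a fixed term, which was chosen after seeing the data. Same-numbered arrays of the subsets correlated at 0.098, 0.381 and 0.238 at day 1 and at 0.637, 0.565 and 0.501 at day 4. In Gpr141b, whose change in Gr1-positive cells did not pass, leaving out 1 array gave -0.26 to 0.07, the sign turning without day 1 Gr1-positive replicate 2. Of 205 named genes, 191 kept direction and call in all 19 alternatives run. Averaging its probe sets took Top2a to 0.25 (adjusted p = 0.640). The causes were not tested. The 3 arrays per group limit the precision.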
